A study of Homo sapiens with 8 samples.

Results

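The heat shock proteins and J proteins (DNAJ) are the molecular chaperones of the cell, and their genes were followed through 8 transfections of 5 human cancer cell lines. A gene was taken as a member when its name on the array began with HSPA, HSPB, HSP90, HSPD, HSPE, HSPH or DNAJ and went on in capital letters and digits only. This gave 78 genes, measured by 111 probes, of the 43317 gene names on the array. The rule used names and no measured value. By family the members were 14 genes named HSPA (the HSP70 family, with HSPA4 and HSPA4L, which are of the HSP110 type), HSPH1 (HSP110), 3 HSP90 genes, the 2 subunits of the mitochondrial chaperonin (HSPD1 and HSPE1), 8 genes named as small heat shock proteins (HSPB), 4 DNAJA, 13 DNAJB and 28 DNAJC genes. The name rule also caught 3 pseudogenes (DNAJA1P5, HSP90AA2P and HSP90AB4P) and HSPBP1 and HSPBAP1, which bind chaperones but belong to none of these families. One of the 8 HSPB genes, HSPB11, is a subunit of intraflagellar transport and its transcript is listed by RefSeq as IFT25.

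The cell lines were PC3 (prostate cancer), SK-MES-1 (lung squamous cell carcinoma), SW1990 and PANC1 (both pancreatic cancer) and MDA-MB-231 (breast cancer). PC3 cells received 1 of 2 small interfering RNAs against PIR, the gene of the transcriptional cofactor pirin, on 1 array each (si-PIR-2 and si-PIR-3). SK-MES-1 cells received miR-144-5p or miR-144-3p, SW1990 and MDA-MB-231 cells miR-204-5p, and PANC1 cells miR-130-5p or miR-130-3p, again with 1 array for each transfection. On all 8 arrays the transfected cells were labelled with the red dye Cy5 and mock cells of the same line, which the labels give as not transfected, with the green dye Cy3. The RNAs were delivered by lipofection. No array carried a control oligonucleotide and no dye was swapped, so that an effect of lipofection or of the dye on a gene cannot be told apart from the effect of the transfected RNA. The mock cells of each line had no biological replicate here, and the labels do not say whether the pair of arrays of PC3, SK-MES-1 or PANC1 shared 1 mock RNA. All 5 mocks had the epithelial keratin KRT18 well above background, whereas KLK3, which marks differentiated prostate cells, and PDX1, which marks pancreatic cells, were not well above background on any array.

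Chaperones hold unfolded proteins and help them fold, pass them on, or hand them over for degradation. HSP70 proteins work in cycles of ATP hydrolysis. J proteins deliver the client and start the hydrolysis, HSP110 proteins release the nucleotide, and HSP90 takes over clients such as kinases. Small heat shock proteins hold unfolded clients without ATP. Heat and other proteotoxic stress induce many of these genes through HSF1, which binds heat shock elements in their promoters. The members of the endoplasmic reticulum (HSPA5, HSP90B1, DNAJB9, DNAJB11, DNAJC3 and others) are induced by unfolded protein in that compartment, through the ER stress element among others. Tumor cell lines usually express HSP70 and HSP90 at high levels.

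Some members carried a heat shock element or an ER stress element near their start site. In the RefSeq windows from 250 bases before to 50 bases after the start site (GRCh38.p14), 66 members had a promoter. A 3-unit heat shock element, which is GAA and its complement TTC in turn with any 2 bases between neighbouring units, stood on either strand in the windows of 7 of them (10.6%), against 0.608% of all 27305 genes with a window. These 7 were HSPA6, HSPA8, HSP90AA1, HSP90AB1, HSPD1, DNAJA1 and DNAJB6. The ER stress element, CCAAT and CCACG with a fixed run of any bases between them and on either strand, was found in HSPA5 and HSP90B1 (3.03%), and in 0.0916% of all genes. The windows of the stress-inducible pair HSPA1A and HSPA1B did not hold the letters of the 3-unit motif. Matches can overlap, as they do in HSPD1, and HSPA8, HSP90AB1 and HSP90B1 each held 2 matches, of which 1 is shown. The sequences are shown because the array values of their genes are compared with one another in the results on si-PIR and miR-130-5p. They are written 5′ to 3′ on the strand of the gene, with the matches in capitals.
HSPA6, chr1:161524446-161524498, plus strand: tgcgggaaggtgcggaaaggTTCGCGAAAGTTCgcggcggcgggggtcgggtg
HSPA8, chr11:123062159-123062211, minus strand: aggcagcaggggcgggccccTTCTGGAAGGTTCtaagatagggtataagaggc
HSP90AA1, chr14:102087100-102087152, minus strand: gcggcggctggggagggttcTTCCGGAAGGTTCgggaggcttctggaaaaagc
HSP90AB1, chr6:44247811-44247863, plus strand: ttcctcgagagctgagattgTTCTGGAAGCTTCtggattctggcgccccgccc
HSPD1, chr2:197500048-197500090, minus strand: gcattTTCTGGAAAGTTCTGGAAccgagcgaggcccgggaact
DNAJA1, chr9:33025256-33025308, plus strand: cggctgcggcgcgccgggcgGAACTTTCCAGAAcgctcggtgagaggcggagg
HSPA5, chr9:125241371-125241429, minus strand: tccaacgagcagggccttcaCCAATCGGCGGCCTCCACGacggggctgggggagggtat
HSP90B1, chr12:103930301-103930359, plus strand: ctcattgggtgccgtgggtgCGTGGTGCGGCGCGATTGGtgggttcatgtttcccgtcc

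The transfected microRNAs named in full by the labels were looked up in RefSeq, because the seed, bases 2 to 8, is the part of a microRNA that pairs with its targets. The 3 seeds, in capitals, differ from one another. The label miR-130 lacks the letter that would tell miR-130a from miR-130b, and no sequence is given for it. The hairpin of miR-204 lies on the minus strand of chromosome 9 and that of miR-144 on the minus strand of chromosome 17 (GRCh38.p14).
hsa-miR-204-5p, chr9:70810031-70810052: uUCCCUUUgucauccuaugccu
hsa-miR-144-3p, chr17:28861548-28861567: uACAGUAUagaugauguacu
hsa-miR-144-5p, chr17:28861583-28861604: gGAUAUCAucauauacuguaag

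The Cy3 channel was well above background, by the scanner's own test, at 43.7 to 48.6% of spots and the Cy5 channel at 51.8 to 56.5%. None of the spots was saturated, and precision is limited by how few arrays there are. PIR itself had a log2 ratio of -5.46 with si-PIR-2 and -4.27 with si-PIR-3. It read -1.59 with miR-130-5p in PANC1 and lay between -0.24 and 0.05 on the 5 other arrays. A log2 ratio of transfected over mock was read only where at least 1 channel was well above background. By this rule 64 members were read on all 8 arrays, 7 on some of them (DNAJB13, DNAJC12, DNAJC5G, HSP90AB4P, HSPB3, HSPB8 and HSPB9), and 7 on none (DNAJB3, DNAJB7, DNAJB8, DNAJC5B, HSPA12B, HSPB2 and HSPB7). HSPA1A and HSPA1B encode the same protein from near-identical transcripts, and HSP90AA2P and DNAJA1P5 are copies of HSP90AA1 and DNAJA1, so that the signals of these pairs may be shared between the probes. Where a gene had several probes the brightest was used. Of 27 members with more than 1 probe, 7 had another probe that differed from it by over 1 on at least 1 array (DNAJB2, DNAJC3, DNAJC9, DNAJC14, DNAJC21, HSPA6 and HSPB11).

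Before any transfection the lines differed in the level of some members, among them inducible HSP70 genes, J proteins and HSPB8. The mock level of a gene was the log2 processed Cy3 signal minus the 75th percentile of the array, averaged over the arrays of a line. Of the 78 members, 66 were well above background in the mock of at least 1 line, on all arrays of that line, and 61 in all 5. Levels are compared between lines for the same probe only, and have no test because each line is 1 sample. The 2 Cy3 channels of a line differed by a median of 0.05 to 0.07 over members read on both, and by 0.58, 0.67 and 0.81 at most (HSPA1L in PC3, HSPA4L in SK-MES-1 and HSPB8 in PANC1). A difference over 1 is therefore larger than the spread between arrays, which covers hybridization only.

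HSPA1A, the main stress-inducible HSP70, had a mock level of 6.87 in SW1990, 5.08 in PC3, 4.65 in PANC1, 4.15 in SK-MES-1 and 3.57 in MDA-MB-231. SW1990 stood alone at the top, and the range came to 9.82-fold. HSPA1B was also highest in SW1990, at 6.08, but MDA-MB-231 followed at 5.05, before PC3 at 4.42, PANC1 at 3.66 and SK-MES-1 at 3.54. MDA-MB-231 thus held the least HSPA1A of the lines but came next to SW1990 in HSPA1B. HSPA6, an HSP70 that is hardly made without stress, was at -0.69 in PC3, -1.63 in SW1990, -2.74 in PANC1, -2.82 in SK-MES-1 and -3.41 in MDA-MB-231. Its second probe, which was dimmer, ranged from -3.32 in SW1990 to -2.46 in PANC1 and did not put PC3 or SW1990 on top.

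HSPA8, the housekeeping HSP70, was at 5.07 in SK-MES-1, 5.83 in PC3, 6.11 in SW1990 and 6.28 in both PANC1 and MDA-MB-231. HSP90AB1, the constitutive cytosolic HSP90, was at 4.21 in SK-MES-1 and between 5.50 and 5.97 in the other lines. HSP90AA1, the inducible one, ranged from 7.91 in PANC1 to 8.94 in SW1990. SK-MES-1 thus held the lowest level of both constitutive genes. HSPD1 and HSPE1, which share a bidirectional promoter, ranged over 0.74 and 0.78, with SK-MES-1 lowest and PANC1 highest in both. HSPB1 (HSP27) ranged over 0.84, from 6.08 in SK-MES-1 to 6.92 in PC3. By the brightest probe, the narrowest range belonged to DNAJB6, a J protein that keeps polyglutamine proteins from aggregating, at 4.97 to 5.17. A dimmer probe of DNAJB6, for another transcript, ranged from 0.77 in SK-MES-1 to 2.80 in MDA-MB-231.

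In the endoplasmic reticulum, HSPA5 (BiP), the HSP70 of that compartment, was highest in PANC1 at 3.53 and lay between 2.33 and 2.82 in the other 4 lines. HSP90B1 (GRP94), the HSP90 of that compartment, was lowest in PANC1, at 6.46, against 7.16 to 7.62 elsewhere. DNAJC3, an ER J protein also known as a kinase inhibitor, was at 3.22 in SW1990, 2.30 in SK-MES-1, 1.99 in MDA-MB-231, 1.22 in PC3 and 0.99 in PANC1. DNAJB9, the ER J protein that represses the stress sensor IRE1, was at 3.18 in SK-MES-1, 2.81 in SW1990, 2.21 in PC3, 2.11 in MDA-MB-231 and 1.93 in PANC1. In mitochondria, HSPA9 (mortalin), the HSP70 of the import motor, was at 4.95 in PANC1 and between 3.38 and 3.89 in the other lines.

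The widest ranges belonged to less well known members. DNAJA4, a cytosolic J protein, was at 3.44 in SW1990 and 2.85 in SK-MES-1, and at -0.37 in PANC1, -1.78 in PC3 and -1.79 in MDA-MB-231. It was well above background in all 5 lines, and its range of 5.23 (37.6-fold) was the largest among the members. HSPB8, which works with BAG3 in selective autophagy, was at 0.08 in SK-MES-1, -2.17 in MDA-MB-231 and -2.55 in PANC1, and was not well above background in SW1990 and PC3. SK-MES-1 was at least 15.3-fold above PC3 in HSPB8. DNAJC12, a partner of the aromatic amino acid hydroxylases, was at -1.33 in PC3 and -1.54 in SK-MES-1 and not well above background in the other 3 lines, with PC3 at least 5.67-fold above the lowest line. DNAJC22 was at 0.38 in PC3 and -1.03 in SK-MES-1, and PC3 was at least 13.7-fold above PANC1, where the probe was not well above background. DNAJB13, an axonemal protein of cilia and sperm, was well above background on every array of SW1990, at -1.51, and of PC3, at -2.15, and on 1 of the 2 SK-MES-1 arrays, and SW1990 was at least 4.99-fold above the lowest line.

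HSPA12A, HSPA2, DNAJC6 and HSPA4L also had ranges over 2.9 on the log2 scale. HSPA12A, a distant HSP70, was at 1.28 in PANC1, -0.03 in PC3, -1.53 in MDA-MB-231, -1.64 in SK-MES-1 and -2.50 in SW1990, so that the 2 pancreatic lines were its highest and its lowest. HSPA2, an HSP70 best known from testis, was at 0.35 in PC3, between -1.39 and -0.93 in 3 lines and at -3.06 in MDA-MB-231. DNAJC6 (auxilin), which uncoats clathrin vesicles, was at 1.80 in MDA-MB-231, 1.08 in SW1990, 0.87 in SK-MES-1, -0.76 in PANC1 and -1.23 in PC3. HSPA4L, an HSP110-type protein, was at -1.72 in SK-MES-1 and between 0.41 and 1.24 elsewhere. DNAJC7, which binds HSP70 and HSP90 together, was lowest in PANC1, at 0.83, against 2.53 to 3.28 in the other lines.

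By count, 36 of the 66 detected members (54.5%) had at least 1 line more than 1 away, on the log2 scale, from the median of the other 4 lines, and so did 53.6% of all 23218 genes detected. A range over 2 was found in 18 members (27.3%), against 39.6% of all genes, and a range under 1 in 10 members (15.2%), against 25.0% of all genes. The median range was 1.47 for the members and 1.62 for all genes. Unlike the counts by line, the ranges use levels below background as they stand, which can widen the range of a dim gene. As 61 of the 66 members were well above background in all 5 lines, the shares by range are not read as particular to the family. SW1990 had 11 members (16.7%) above the other lines, with 11.3% of all genes, among them HSPA1A, HSPA1B, HSPA6, DNAJB11 and DNAJC3. SK-MES-1 had 12 members (18.2%) below the other lines, with 10.3% of all genes, among them HSPA8, HSP90AB1, HSPA1B, HSPA14 and DNAJA2. The number above the others was 6 in SK-MES-1, MDA-MB-231 and PANC1 each (9.09%; 13, 9.97 and 12.1% of all genes) and 7 in PC3 (10.6%; 10.8% of all genes). The number below was 5 in PC3 and in SW1990 (7.58%; 8.27 and 10.7%) and 7 in MDA-MB-231 and in PANC1 (10.6%; 8.73 and 9.21%).

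**Figure D1:**
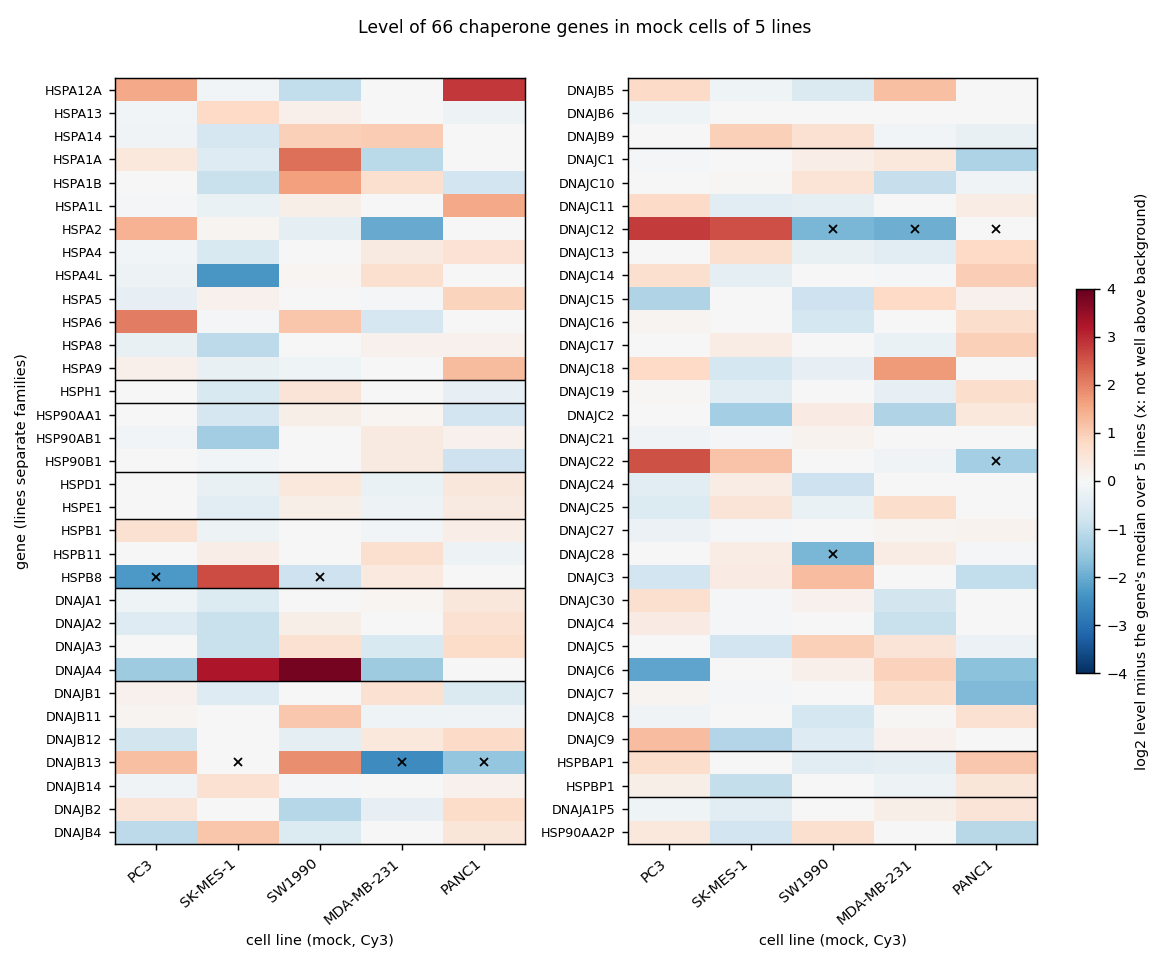
Mock level of the 66 chaperone genes detected in at least 1 line. Rows are genes, with horizontal lines between families, columns are the 5 cell lines, colour is the log2 level minus the median of the gene over the lines, and a cross marks a mock that was not well above background. DNAJA4 is at 3.44 in SW1990 and 2.85 in SK-MES-1, and HSPA1A and HSPA1B are highest in SW1990, and DNAJB6 is the row with the narrowest range.

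After transfection most chaperone genes stayed close to the mock. The median log2 ratio of the members read on an array lay between -0.06 (PANC1 miR-130-5p) and 0.13 (PANC1 miR-130-3p), and that of all genes between 0.02 and 0.09. Between 59.4 and 89.6% of the members were within 0.5 of zero on an array, against 58.6 to 81.1% of all genes read. Past a log2 ratio of 1, taken as changed for counting, there were 14 readings above and 10 below among the 543 readings of members (2.58 and 1.84%), with 5.03 and 2.50% of the 185906 readings of all genes. They came from 16 members. Of the 14 higher readings, 8 had the mock channel not well above background (HSPB3 on 3 arrays, DNAJB13 on 2, and DNAJC5G, HSPB9 and HSP90AB4P on 1 each). For these 8 the bound was at least 1.4-fold for HSPB3 with miR-144-5p and at least 1.14-fold or less for the others. With both channels well above background 6 readings were higher and 10 lower (1.16 and 1.93%), with 1.29 and 2.53% of the readings of all genes.

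By array, si-PIR-2 had 1 member above and 1 below the threshold (5.82 and 2.87% of all genes passed) and si-PIR-3 had none on either side (3.92 and 2.28%). With miR-144-5p and miR-144-3p 1 member each was above (4.17 and 4.51%) and none below (1.96 and 1.11%). With miR-204-5p 1 member was above and 2 below both in SW1990 (4.56 and 1.93%) and in MDA-MB-231 (3.36 and 1.88%). With miR-130-5p 5 were above and 5 below (7.55 and 6.19%), and with miR-130-3p 4 were above and none below (6.40 and 1.93%). The shares of members, from 0 to 7.25% in a direction, were under those of all genes for every higher count and for the lower counts other than with miR-204-5p (2.99 and 3.08%) and miR-130-5p, where they were slightly above, and no count is read as particular to the family. Dim probes weigh on these readings: with normexp background correction and loess in place of the scanner's ratio, which pulls dim spots toward zero, none was above 1 and 5 were below -1.

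**Figure D2:**
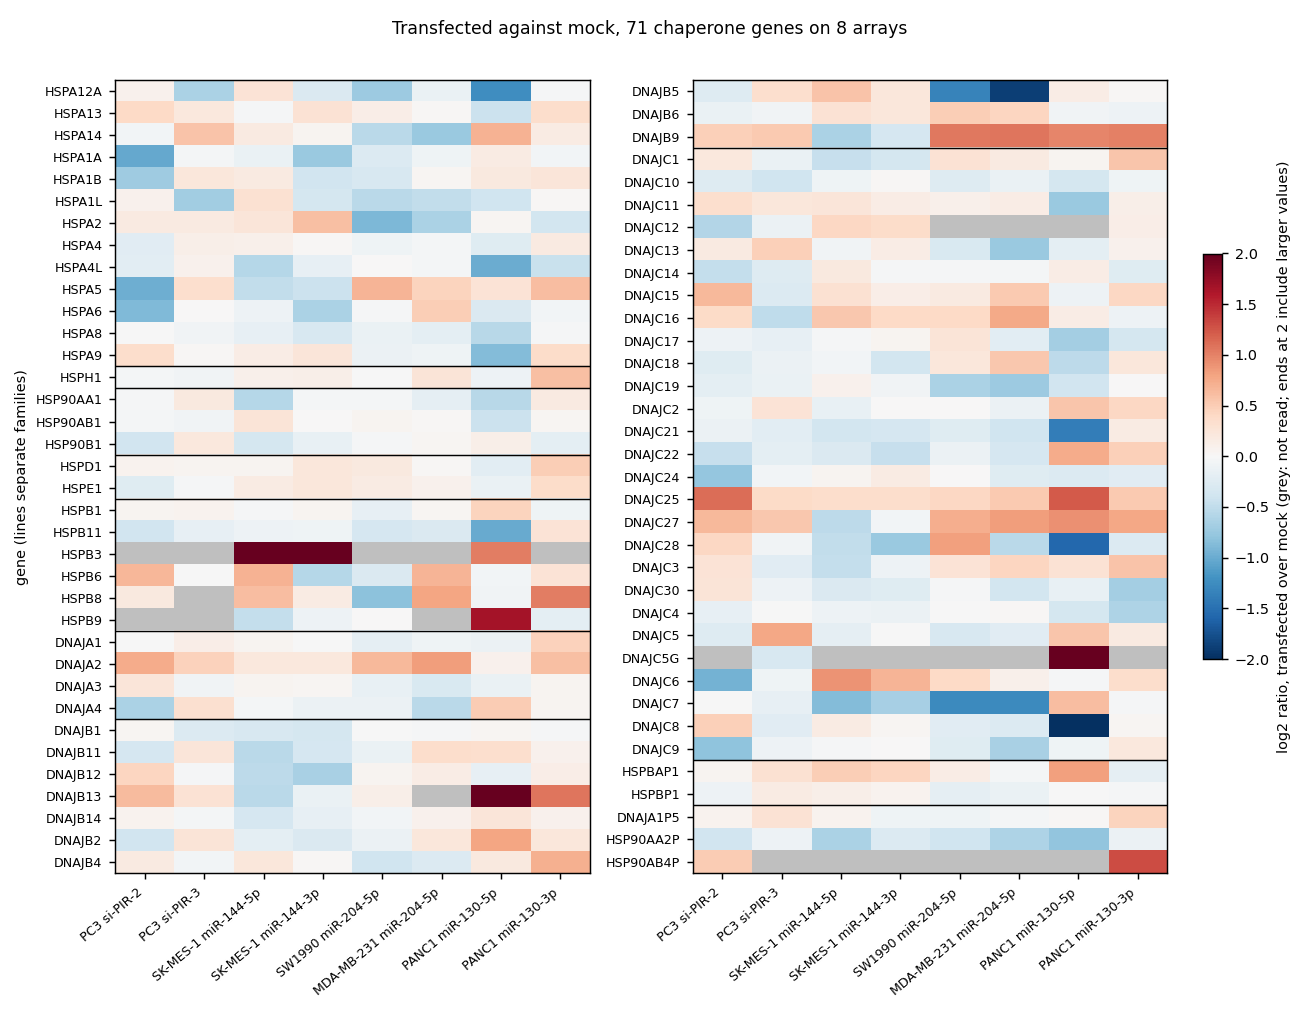
Log2 ratio of transfected over mock for the 71 chaperone genes read on at least 1 array. Rows are genes with lines between families, columns are the 8 arrays, and grey marks a ratio that was not read. The darkest low cell is DNAJC8 on the miR-130-5p array, at -2.18, followed by DNAJB5 in MDA-MB-231, at -1.88, and DNAJC28 on the miR-130-5p array, at -1.58, and HSP90 rows stay within 0.57 of zero.

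**Figure D3:**
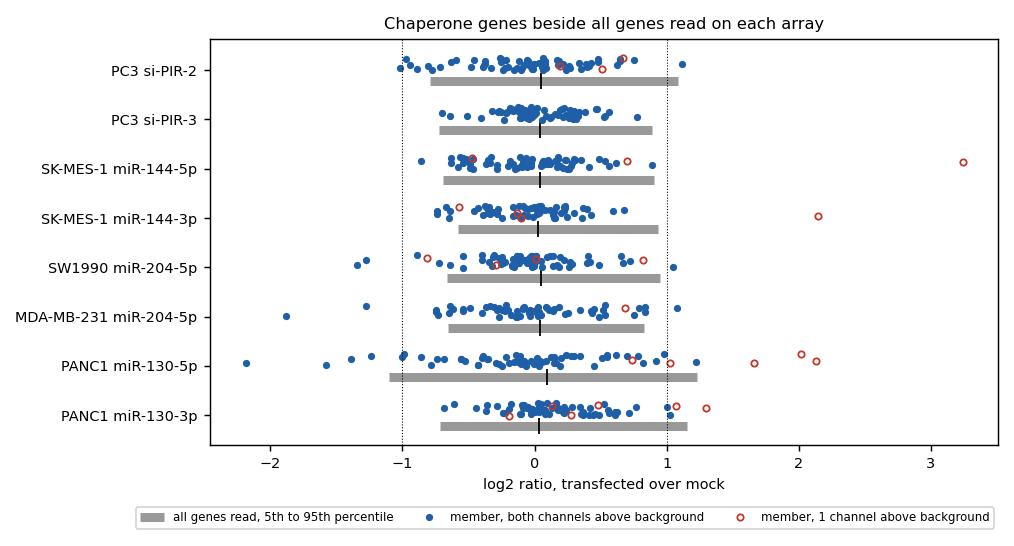
Log2 ratio of each chaperone gene (points) beside the span from the 5th to the 95th percentile of all genes read (grey bars, median as a tick) on the 8 arrays, with dotted lines at -1 and 1. Open points have 1 channel well above background, and they hold the higher readings of HSPB3, at 3.24 and 2.14, in SK-MES-1. Most members lie inside the grey bars on every array.

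HSPA1A had a log2 ratio of -1.02 with si-PIR-2 and -0.04 with si-PIR-3, HSPA1B of -0.72 and 0.23, and HSPA6 of -0.89 and 0.01. The bright probe of HSPA6 was not matched by its dimmer one, which read 0.23 and -0.06. HSPA1A and HSPA1B were lower than mock with si-PIR-2 and nearer to it with si-PIR-3. HSPA5, whose ER stress element is printed with the promoters, read -0.97 and 0.33, and HSP90B1, with the same element, -0.38 and 0.22. DNAJB11, a J protein partner of HSPA5, read -0.33 and 0.24. By the brightest probe, the genes with a 3-unit heat shock element other than HSPA6 lay between -0.13 and 0.08 with si-PIR-2. With si-PIR-3 they lay between -0.08 and 0.20. Some dimmer probes lay outside these ranges. Those of HSP90AA1 read -0.35 and -0.42 with si-PIR-2, and -0.11 and -0.23 with si-PIR-3. The dimmest DNAJB6 probe read 0.45 with si-PIR-2 and -0.39 with si-PIR-3. The dimmer HSP90AB1 probe read -0.14 and -0.08, and the remaining DNAJB6 probe stayed near zero on both arrays. DNAJB1, the main heat-inducible J protein, read 0.03 and -0.28.

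Over the 2 siRNA arrays no member passed limma's test against zero (66 members of 22459 genes tested). The same test called 0 genes in all (0% at an adjusted p under 0.05), and 2341 genes (10.4%) had an unadjusted p under 0.05, 4 members (6.06%) among them. These 4 were DNAJC25 (1.11 and 0.38, mean 0.75, SE 0.25), DNAJA2 (0.75 and 0.46, mean 0.61, SE 0.19), DNAJC27 (0.65 and 0.53, mean 0.59, SE 0.18) and DNAJB9 (0.48 and 0.52, mean 0.50, SE 0.17). With normexp and loess the means of DNAJC25 and DNAJC27 were both 0.27. All 4 were above mock on both arrays, and their limma adjusted p lay between 0.458 and 0.474. The test took the 2 arrays as independent, although they may share 1 mock RNA. For HSPA1A the mean was -0.53 (95% interval -1.38 to 0.32) and for HSPA5 -0.32 (-1.36 to 0.73), so that both intervals spanned zero. The highest reading with si-PIR-3 was DNAJC5 (cysteine-string protein of synaptic vesicles) at 0.77, which read -0.26 with si-PIR-2, and the lowest was HSPA1L, a testis HSP70, at -0.70 against 0.08. Against the mean of the 4 other lines, no member differed in PC3 by limma (lowest adjusted p 0.999, 0% of 18660 genes called, 4.84% at an unadjusted p under 0.05). The 1 member under an unadjusted 0.05 was DNAJC6, with a mean of -0.51 in PC3 and 0.36 over the other lines.

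In SK-MES-1 the 2 strands of miR-144 left the members within 1 of the mock, apart from HSPB3. HSPB3 read 3.24 with miR-144-5p and 2.14 with miR-144-3p, with the mock not well above background. The Cy5 signal there was so near the floor that the bounds came to at least 1.4-fold and at least 1.07-fold. The lowest member with miR-144-5p was DNAJC7, at -0.86, and it read -0.67 with miR-144-3p. DNAJC28 was lowest with miR-144-3p, at -0.74, and read -0.49 with miR-144-5p. DNAJC6 was above mock on both, at 0.89 and 0.67. HSPA1A read -0.13 with miR-144-5p and -0.74 with miR-144-3p, and HSPA6 -0.10 and -0.64. The ER members HSPA5 (-0.49 and -0.43), DNAJB9 (-0.63 and -0.34), DNAJB11 (-0.54 and -0.34) and HSP90B1 (-0.35 and -0.14) were below mock on both arrays. DNAJC3 read -0.47 and -0.11, but 0.90 and 1.47 by its other, dim probe, and DNAJC10, another ER J protein, read -0.09 and 0.03. Since both arrays may share 1 mock RNA, a like value on the pair is not a second measurement of the cells.

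miR-204-5p was the 1 RNA tested in 2 lines with separate mocks, and several members had like values in both. DNAJB5, a cytosolic J protein (probe at hg19 chr9:34998281-34998340), read -1.34 in SW1990 and -1.88 in MDA-MB-231. On the 6 other arrays it read between -0.25 and 0.56. Its second probe read -0.73 and -1.21 with miR-204-5p and -0.32 to 0.90 elsewhere. DNAJC7 (hg19 chr17:40133896-40133955) read -1.28 and -1.27, and was also low in SK-MES-1, while it lay between -0.17 and 0.62 in PC3 and PANC1. DNAJB9 (hg19 chr7:108214515-108214574) read 1.05 and 1.08. Its values were as high in PANC1, at 0.98 with miR-130-5p and just above 1 with miR-130-3p, and lower in PC3 and SK-MES-1, so DNAJB9 was not set apart by miR-204-5p. HSPA2 read -0.89 and -0.64, HSPA14, a ribosome-associated HSP70, -0.54 and -0.74, and DNAJC19, of the mitochondrial import motor, -0.64 and -0.73. The second probe of DNAJC19 read -0.12 and -0.48. DNAJC27 read 0.72 and 0.84, and 0.59 and 0.15 by its second probe. HSPA5 read 0.67 and 0.45. With normexp and loess the mean of HSPA2, a dim probe, was -0.13 instead of -0.76.

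Across the 65 members read on both miR-204-5p arrays Pearson's r was 0.69 (Spearman's rho 0.63), and across all 20489 genes it was 0.45. It was 0.87 over the 62 members whose 2 channels were both above background on each of the arrays. Of all genes, 17336 of the 20489 met this requirement, and r over them was not computed. The 0.69 and the 0.45 thus come from sets with unlike shares of dim probes, and the difference is not read as particular to the family. For the 24 pairs of arrays from different lines with different RNAs, r over the members lay between -0.17 and 0.45, with a median of 0.13, and between -0.14 and 0.51 with the same requirement on both channels. These are correlations across genes, which are not independent replicates, and all arrays share the dye orientation. The comparison was added after the values had been seen. By limma over the 2 lines, no gene passed an adjusted p under 0.05 (0%), and 19.2% of genes and 16 of 65 members (24.6%) had an unadjusted p under 0.05. The mean was -1.61 for DNAJB5 (SE 0.18), -1.27 for DNAJC7 (SE 0.10) and 1.06 for DNAJB9 (SE 0.10), each with an adjusted p of 0.211, the lowest that any gene reached. When the ratios were recomputed by normexp background correction and loess, 1354 genes (6.61%) and 10 members (15.4%) passed. Below mock were DNAJC7 (-1.11), DNAJB5 (-1.17), HSPA14 (-0.62), DNAJC19 (-0.61) and HSP90AA2P (-0.50), and above it DNAJB9 (0.98), DNAJA2 (0.58), HSPA5 (0.50), DNAJB6 (0.42) and DNAJC27 (0.40), with limma adjusted p between 0.017 and 0.0436. Against the 3 other lines DNAJB5 differed by -1.79 (SE 0.22, limma adjusted p = 0.128), from a mean of -1.61 against 0.17. That fit called 6 genes (0.0322%) and no member, and 9 members (14.1%) had an unadjusted p under 0.05, against 11.1% of all genes.

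**Figure D4:**
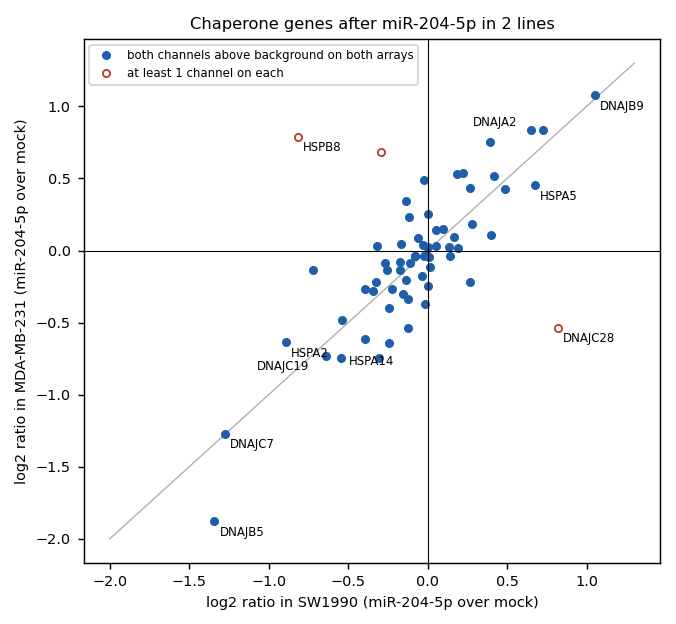
Log2 ratio of miR-204-5p transfected over mock cells in SW1990 (horizontal axis) and MDA-MB-231 (vertical axis), 1 point for each of the 65 chaperone genes read on both arrays, with the grey line at equal values. Filled points had no dim channel on either array. DNAJB5 and DNAJC7 lie at the lower left, below -1 in both lines, and DNAJB9 at the upper right, while HSPB8 and DNAJC28, with a dim channel in SW1990, lie off the line.

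The PANC1 miR-130-5p array had the most members past the threshold, as it had the most genes. DNAJC8, a spliceosome-associated J protein (hg19 chr1:28526870-28526929), was lowest at -2.18, and lay between -0.27 and 0.48 on the 7 other arrays. DNAJC28 followed at -1.58, DNAJC21, which takes part in ribosome biogenesis, at -1.39, and HSPA12A at -1.24, with HSPB11 just below -1. DNAJC28 was dim, and read -0.29 with normexp and loess, against -1.57 for DNAJC8. The second probe of DNAJC21 read -0.93. DNAJC25 was above mock at 1.22 with both channels read (0.46 with normexp and loess), and DNAJB13, DNAJC5G, HSPB9 and HSPB3 were above it with a dim mock channel. HSPA9 read -0.86 and HSPA4L -0.99. By the brightest probe, all 7 genes with a 3-unit heat shock element read below zero here, from -0.56 for HSPA8 and HSP90AA1 to -0.07 for DNAJB6. Their median was -0.29, against 0.04 over the 55 members read that had a promoter window without it and 0.09 over all genes. On the 7 other arrays the median of these genes lay between -0.02 and 0.05. Their dimmer probes were not all below zero with miR-130-5p. The dimmer HSPA6 probe read 0.11 and the dimmest DNAJB6 probe 0.54. The other dimmer probes, of HSP90AA1, HSP90AB1 and DNAJB6, read -0.78 to -0.05. The heat-inducible HSPA1A, HSPA1B and DNAJB1, which are not among the 7, read 0.16, 0.20 and 0.04 on this array. The share of all genes below zero on it was not computed, and the low values are not read as shared by all heat-inducible members.

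With miR-130-3p in the same line the members were less spread. DNAJB9 was just above 1, HSPB8 read 1.03 (0.19 with normexp and loess), and HSP90AB4P, which was highest, and DNAJB13 passed 1 with a dim mock channel. The lowest was DNAJC30, a mitochondrial protein, at -0.69, and its second probe read 0.17. HSPH1, the HSP110 exchange factor, read 0.61, HSPD1 0.49, DNAJA1 0.46 and HSPE1 0.37. By the brightest probe, HSPA8 (-0.03), HSPA1A (-0.06), DNAJB1 (-0.02), HSP90AB1 (0.04) and HSPB1 (-0.08) stayed near the mock. HSPA5 read 0.62 with miR-130-3p and 0.28 with miR-130-5p, and DNAJC3 0.56 and 0.30. Other ER members were not raised alike with miR-130-3p: HSP90B1 read -0.195, DNAJC10 -0.08 and DNAJB11 0.08.

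**Figure D5:**
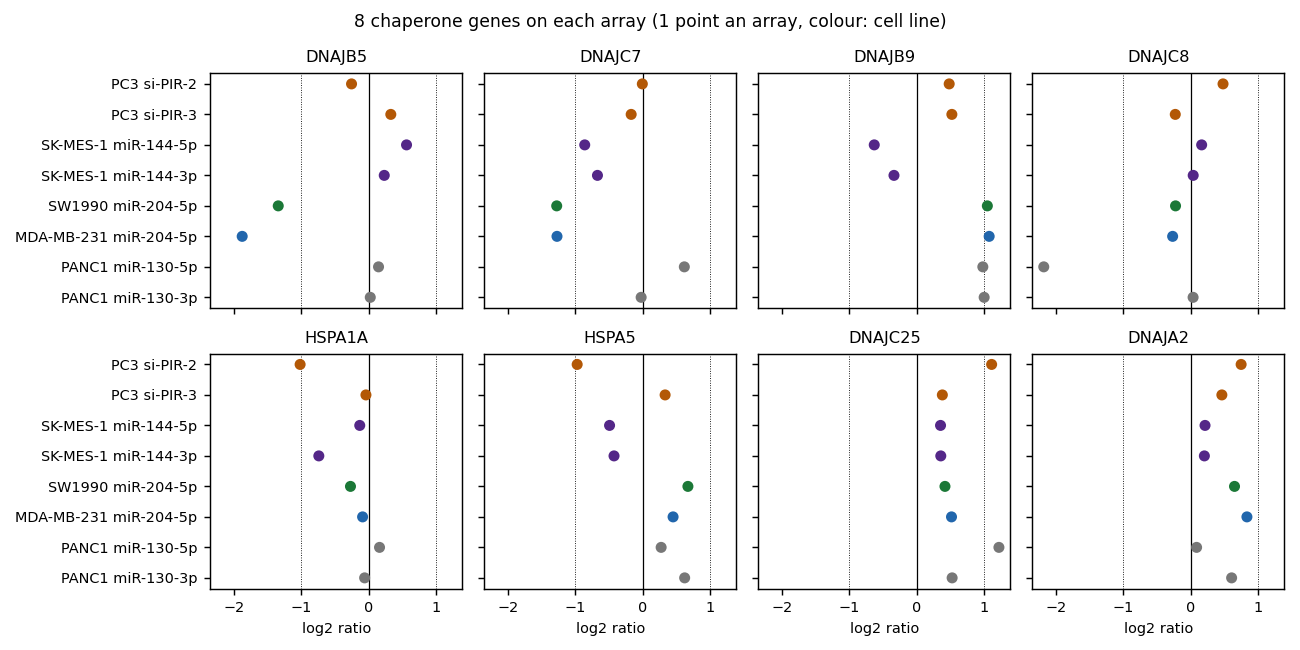
Log2 ratio of 8 chaperone genes on the 8 arrays, 1 point an array, coloured by cell line, with dotted lines at -1 and 1. DNAJB5 is below -1 only with miR-204-5p, DNAJC8 only with miR-130-5p, HSPA1A and HSPA5 are lowest with si-PIR-2, and DNAJC25 and DNAJA2 are above zero on every array.

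Some members lay on the same side of the mock in every transfection. DNAJA2, a cytosolic J protein, and DNAJC25 were above zero on all 8 arrays, at 0.09 to 0.84 and 0.35 to 1.22, as were 4.79% of the 18660 genes read on all arrays. HSPA8 and HSP90AA2P were below zero on all 8, at -0.56 to -0.01 and -0.78 to -0.10, as were 3.08% of genes. The 2 dimmer probes of HSP90AA1 were also below zero on all 8 arrays, whereas the bright probe was above zero on 2. Averaged within each line and tested over the 5 lines, no member passed, with 67 genes (0.359%) called by limma. Of 64 members, 15 (23.4%) had an unadjusted p under 0.05, against 20.4% of all genes. The nearest were DNAJC25 (0.58, SE 0.10, limma adjusted p = 0.0649), HSP90AA2P (-0.43, SE 0.08, adjusted p = 0.0771) and DNAJA2 (0.53, SE 0.11, adjusted p = 0.079), each on 1 side in 5 of 5 lines. With normexp and loess the mean of DNAJC25 was 0.24 (adjusted p = 0.0531). DNAJC25 passed with both channels required (adjusted p = 0.0481), and DNAJC25 and DNAJA2 passed over the 8 arrays with the line as a random block (0.0417 and 0.049). HSP90AA2P passed with normexp and loess (0.0423). Because no dye was swapped, a dye effect on these probes cannot be told apart from a response to transfection.

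By the brightest probe, the mean over the 5 lines had an interval that reached no further than 0.37 from zero for several abundant chaperones. HSPA8 averaged -0.18 (95% interval -0.37 to 0.00), HSP90AB1 -0.01 (-0.20 to 0.19), HSPD1 0.11 (-0.07 to 0.29), HSPE1 0.09 (-0.11 to 0.28), HSPB1 0.03 (-0.17 to 0.22), HSPH1 0.11 (-0.09 to 0.32), DNAJA1 0.00 (-0.20 to 0.20) and DNAJB1 -0.10 (-0.30 to 0.11). HSPA5 had a wider one, 0.16 (-0.27 to 0.59), with 3 lines above zero and 2 below. The narrow interval of HSPB1 holds for its brightest probe only, which read -0.17 to 0.45 over the arrays. Another HSPB1 probe, nearly as bright, read from -0.61 in SW1990 to 0.31 with miR-130-5p. It read -0.34 with miR-144-5p, -0.32 with miR-144-3p and -0.55 with miR-130-3p.

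The genes around the chaperones were read as fixed lists. The lists held 5 HSF genes and binding proteins, 29 co-chaperones and other chaperones, 8 subunits of TRiC (the cytosolic chaperonin) and 20 ER stress genes. Among the 29 was HSCB, which has a J domain but no DNAJ name. No gene of the lists passed limma's test over the 5 lines in either direction. The TRiC subunits had a median of -0.23 over the lines, against 0.03 for all genes, with 5 of 8 under an unadjusted 0.05, where 20.4% of all genes were. Their median was below zero on each array, from -0.52 with miR-130-5p to -0.04 with miR-130-3p. The HSF list had a median of 0.03 with 1 of 5 genes under 0.05, the co-chaperones and other chaperones -0.06 with 6 of 29, and the ER stress genes -0.02 with 5 of 20. With si-PIR the medians of the 4 lists lay between -0.10 and 0.00, against 0.03 for all genes. The ER stress genes had a median of -0.26 with miR-144-5p but of -0.03 with miR-144-3p, against 0.04 and 0.02 for all genes. HSF1 itself read between -0.03 and 0.60 on the 8 arrays.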

How the data were processed

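RNA of transfected (Cy5) and mock (Cy3) cells was hybridized to 8 two-colour Agilent 60K arrays, all on 1 slide read in 1 scan. Per the file headers, the authors used Agilent Feature Extraction. The deposited log10 ratio (background corrected, dye normalized by linear and lowess fits) was multiplied to log2 scale, and the deposited value table was identical to it. The deposited intensities (processed, mean and background signal per channel) gave the mock levels and the alternative ratios. Control and outlier spots (126 to 173 an array) were left out, spots of a probe were averaged, and the brightest probe stood for a gene. Ratios needed at least 1 channel well above background. Means were tested with limma 3.58.1 in R 4.3.3 (lmFit, eBayes, Benjamini-Hochberg over all genes, adjusted p under 0.05), after the script was tested on simulated data. Calls by size used a log2 ratio of 1. A dim channel gave a bound only, taken per channel after loess and Aquantile normalization against the lowest signal well above background (for mock levels, against the lowest such level of the array). Named genes were 17 classical members, the 10 widest mock ranges, members past 1 on 2 arrays in 1 direction, the extremes of each array, and a few others named for their function, probe or values after these were seen. The members and lists were chosen with earlier results of these data known. Replicates are separate arrays, so p-values measure the spread between arrays or lines. Transcripts of 74 members matched RefSeq, 73 under the same symbol.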

Additional observations from a re-analysis of the deposited data

Results flagged for a closer look

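Over the values of 5 lines, 58 sets of named genes were compared with Dixon's 95% critical value of 0.71, and 4 had 1 line far from the others, where chance gives about 1 in 20. In mock levels, SK-MES-1 stood apart at 4.21 for HSP90AB1 (nearest line 5.50) and at -1.72 for HSPA4L (nearest 0.41), and PANC1 at -1.39 for HSPA1L (nearest -2.68). In the responses, DNAJC22 averaged 0.61 in PANC1, with the nearest line at -0.12. The mock of PANC1 was not well above background for DNAJC22.

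With miR-204-5p, DNAJC28 read 0.82 in SW1990 and -0.54 in MDA-MB-231, and HSPB8 read -0.82 and 0.79. Both moved in opposite directions in the 2 lines, the difference was not tested, and for both genes the SW1990 mock channel was not well above background. With normexp and loess the values were 0.07 and -0.14 for DNAJC28 and -0.08 and 0.22 for HSPB8.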

How the results depend on the processing

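The number of members called was 0 over the si-PIR arrays and in PC3 against the other lines under every alternative run, and stayed 0 over the 5 lines except with normexp and loess (1), with both channels required (1) and over 8 arrays with the line as a random block (2). Leaving out a line gave 0 in each case. For miR-204-5p, normexp and loess gave 10 in place of 0, and 5 genes, no member among them, were called with both channels required. Causes were not tested. Readings of members past the threshold were 14 higher and 10 lower, and became 5 and 3 at a threshold of 1.5, 46 and 45 at 1.5-fold, 0 and 5 with normexp and loess (which pulls dim ratios to zero by its offset of 50), 6 higher with both channels required, and 9 and 5 without the PANC1 miR-130-5p array. Mock calls over the lines were 36 higher and 36 lower, and became 14 and 18 with normexp and 10 and 5 at a threshold of 2. The median member ratio with si-PIR was -0.04 and ranged from -0.0261 to -0.0222 with 1 siRNA left out. DNAJB9 with si-PIR reversed to -0.0212 after the mean of the 6 other arrays was subtracted. Genes called over the 5 lines went from 67 to 218 with normexp and loess, 150 with both channels, 24 without a filter, 37 with the mean over probes, 368 with the random block and 33 without PANC1 miR-130-5p; without 1 line they were 3 to 8 (without PC3 8, SK-MES-1 3, SW1990 7, MDA-MB-231 5 and PANC1 3). In PC3 against the other lines 1119 genes were called without a filter, against 0, and in the miR-204-5p lines against the others 15 with both channels, 1 without a filter and 9 with normexp and loess, against 6. With normexp and loess DNAJB5 in SW1990 read -0.82 and DNAJB9 0.995 in SW1990 and 0.97 in MDA-MB-231, no longer past 1. No paired analysis was possible because the groups compared share fewer than 2 replicate numbers, and each array already pairs a transfected with a mock sample. A block for slide or scan was not run, as all arrays shared 1 of each. Depth of signal limits the 14 members not read on all arrays.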
